A study of Mus musculus with 8 samples.

Results

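A group of 8 genes of fatty acid supply and oxygen storage were followed in the developing mouse diaphragm: Lpl, Gpihbp1, Cd36, Fabp3, Fabp4, Dgat2, Thrsp and Mb. They were chosen by name, as 8 of the 19465 genes that the probe set measured. No cutoff on a value was used, but earlier results of these data were known. Each symbol named 1 gene, and all 8 passed the filter on low counts in every comparison across muscle spots. The transcripts were counted by spatial transcriptomics (Visium) in 8 sections of formaldehyde-fixed, paraffin-embedded diaphragm, in which short probes are captured on spots that each cover a small region with several cells. Embryos of 3 genotypes were compared. Control embryos carried at least 1 CaV1.1 and 1 β-catenin expressing allele, with 3 sections at E14.5 (E, embryonic day) and 2 at E18.5. CaV1.1 KO embryos lacked the skeletal muscle L-type calcium channel (CaV1.1-/-), the voltage sensor of excitation-contraction coupling, with 1 section at E14.5 and 1 at E18.5. The β-cat cKO, with 1 section at E18.5, carried floxed β-catenin and Cre under the HSA promoter, which is active in skeletal muscle, so that other cells of the section kept the gene. The design speaks of separate diaphragms, and each mutant group is 1 section, which was assumed to vary as the control sections do.

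Fatty acids reach muscle largely as triglyceride in lipoproteins. On the capillary wall, lipoprotein lipase (Lpl), made by the muscle fibers and carried across the endothelium by its anchor Gpihbp1, frees the fatty acids, which the membrane protein Cd36 takes up and the binding proteins Fabp3, of muscle, and Fabp4, of capillary endothelium and fat cells, carry. Dgat2 adds the last fatty acid to triglyceride, Thrsp (Spot 14) is a thyroid hormone responsive protein of lipid synthesis, and myoglobin (Mb) binds oxygen in oxidative fibers.

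The 8 genes lie on 6 chromosomes of mm10 (RefSeq, GRCm38.p6). Lpl lies at chr8:68880555-68906932, Gpihbp1 at chr15:75596630-75598213, Cd36 at chr5:17781690-17888959 and Fabp3 at chr4:130308738-130315463. Fabp4 lies at chr3:10204342-10208616, Dgat2 at chr7:99153663-99182713, Thrsp at chr7:97412933-97417550 and Mb at chr15:77015487-77050668. The 250 bases before the annotated start are printed for Fabp3 (chr4:130308488-130308737, plus strand) and Thrsp (chr7:97417551-97417800, minus strand), because these 2 genes showed the largest losses in CaV1.1 KO muscle, at E18.5 and at E14.5 respectively. The sequences run 5′ to 3′ on the gene's strand (RefSeq, GRCm38.p6), and capitals mark CCAAT, searched on both strands, and CANNTG, which reads the same on both strands.
Fabp3: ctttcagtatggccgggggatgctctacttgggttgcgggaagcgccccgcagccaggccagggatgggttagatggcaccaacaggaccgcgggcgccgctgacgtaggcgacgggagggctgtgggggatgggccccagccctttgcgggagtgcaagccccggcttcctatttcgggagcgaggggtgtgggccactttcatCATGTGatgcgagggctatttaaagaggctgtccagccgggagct
Thrsp: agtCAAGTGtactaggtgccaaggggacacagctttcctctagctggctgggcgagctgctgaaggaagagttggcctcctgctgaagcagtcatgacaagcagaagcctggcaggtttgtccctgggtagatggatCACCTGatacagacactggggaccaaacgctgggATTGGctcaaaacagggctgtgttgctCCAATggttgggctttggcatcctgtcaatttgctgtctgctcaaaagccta
The Fabp3 window held 0 CCAAT and 1 CANNTG, the Thrsp window 2 CCAAT and 2 CANNTG, and no match overlapped another. Of 32851 promoters of this length, 33.8% held CCAAT and 66.2% held CANNTG, so that these matches are a description only. An entry was at hand for 4 of the 8 genes (Cd36, Fabp3, Thrsp, Mb).

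The sections held 703 to 3478 spots and 14179161 to 82859104 unique molecular identifiers (UMIs), each the count of 1 captured molecule. Spots with at least 1000 UMIs were kept, and muscle spots were those with a high mean level of 9 muscle genes (Acta1, Actn2, Des, Myl1, Mylpf, Neb, Ryr1, Tnnt3, Ttn). They made up 55.0% to 89.4% of the kept spots, from 491 in the E14.5 KO section to 3092 in E18.5 control section 1, with a median of 18115 to 49950 UMIs per spot. The levels of the targeted genes were set beside the labels. Cacna1s, which encodes CaV1.1, was at 29.7 CPM (UMIs of a gene scaled to a common library size) in the E18.5 KO section against 84.4 and 87.3 CPM in the controls (log2 fold change -1.53, adjusted p = 0.00133). In the section labelled CaV1.1 KO at E14.5 it was at 13.4 CPM against 16.5, 15 and 18.4 CPM (-0.30, adjusted p = 0.34), and Ctnnb1, which encodes β-catenin, was at 96.2 CPM in the section labelled β-cat cKO against 104.6 and 97.4 CPM. Where the probes lie relative to the mutated or deleted stretches is not given in the sources used here. These levels thus do not check those 2 labels, and they are written below as KO-labelled and cKO-labelled. The lower Cacna1s does not by itself check the E18.5 KO label either, because the 9 muscle genes were lower there too. They summed to 67444.5 CPM in that section against 176907 and 180332 CPM in the controls. It is called E18.5 KO below after its label. E18.5 control section 1 held more cartilage RNA in its muscle spots (895 CPM over 4 markers, scaled to library size) than the other 7 sections (7.12 to 56.1 CPM).

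To ask how the fuel genes changed as the muscle matured, the muscle spots of the control sections were compared between E18.5 and E14.5. All 8 genes were higher at E18.5, against 33.2% of all 14832 genes tested (32.3% were lower), and for each of the 8 both E18.5 sections lay above all 3 E14.5 sections. Values below are CPM after TMM scaling, a scaling on the bulk of genes, and are compared only within a gene, since probes differ in efficiency. A higher level in a spot can come from more cells of a type or from more RNA per cell, which cannot be told apart here.

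The lipase and its anchor both rose. Lpl stood at 135, 103 and 106 CPM in the E14.5 sections 1, 2 and 3 and at 526 and 527 CPM in the E18.5 sections 1 and 2. The log2 fold change was 2.19 (SE 0.13, adjusted p = 6.18e-06; edgeR quasi-likelihood test, Benjamini-Hochberg adjustment, as for all values below). Gpihbp1 went from 14.9, 27.6 and 21.2 CPM to 121 and 131 CPM, a log2 fold change of 2.56 (SE 0.21, adjusted p = 2.85e-05). The E14.5 sections were spread more widely for Gpihbp1 (mean 21.2 ± 6.38 CPM, SD, n = 3) than for Lpl (mean 115 ± 17.6 CPM, SD, n = 3) in relation to the mean.

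The uptake and binding proteins rose as well. Cd36 was at 127, 109 and 104 CPM at E14.5 and at 419 and 469.9 CPM at E18.5 (log2 fold change 1.97, SE 0.12, adjusted p = 5.83e-06). Fabp3, the binding protein of muscle, was at 77.8, 55.6 and 49.2 CPM and then at 609 and 543 CPM (3.24, SE 0.19, adjusted p = 5.33e-06). Fabp4 was at 54.4, 93.1 and 59.3 CPM and then at 408 and 435 CPM (2.61, SE 0.22, adjusted p = 2.68e-05). Of these 3, Fabp3 had the largest fold change, and Fabp4 the widest spread among the E14.5 sections, with section 2 above the other two.

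The gene of triglyceride synthesis rose least and the lipogenic regulator most. Dgat2 was at 24.0, 18.7 and 13.4 CPM at E14.5 and at 73.1 and 66.4 CPM at E18.5 (log2 fold change 1.89, SE 0.20, adjusted p = 9.59e-05). Thrsp was nearly silent at E14.5, with 54, 58 and 23 UMIs in all muscle spots (2.28, 1.61 and 1.44 CPM), and reached 6110 and 6852 UMIs (111 and 149 CPM) at E18.5. Its log2 fold change was 6.18 (SE 0.20, adjusted p = 6.43e-07). Mb was at 5.91, 4.20 and 3.77 CPM and then at 103 and 187 CPM (4.96, SE 0.28, adjusted p = 5.05e-06), so that the 2 E18.5 sections differed from each other more for Mb (mean 145 ± 59.8 CPM, SD, n = 2) than for any other of the 8 genes in relation to the mean.

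**Figure D1:**
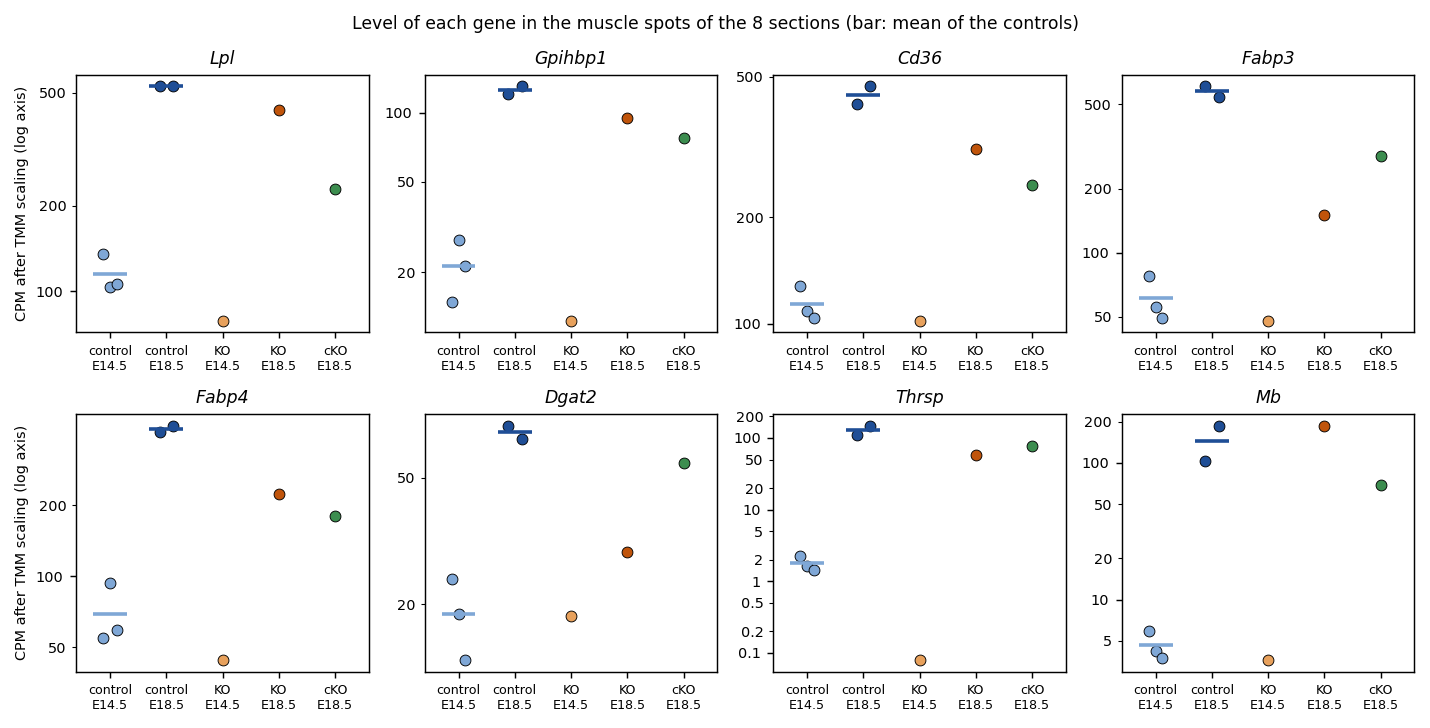
Level of each gene in the muscle spots of the 8 sections, in CPM after TMM scaling on a log axis; each point is 1 section, grouped by genotype and stage, and the bars are the means of the 3 E14.5 and the 2 E18.5 control sections. For all 8 genes both E18.5 control sections lay above the 3 E14.5 control sections, and Thrsp lay at 0.0797 CPM in the KO-labelled E14.5 section.

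The direction of these changes is relative to the other transcripts of the spot. The 9 muscle genes summed to 17723 to 23875 CPM in the muscle spots at E14.5 and to 176907 and 180332 CPM at E18.5. Scaled to those 9 genes, the median of all genes shifted by -3.19 on the log2 scale, Thrsp (3.03) and Mb (1.81) remained higher and Fabp3 was at 0.09, while Lpl (-0.96), Gpihbp1 (-0.66), Cd36 (-1.19), Fabp4 (-0.60) and Dgat2 (-1.25) were lower, all 5 above that shift. By library size alone, a scaling added after the data were seen, the median of all genes shifted by -0.73 and all 8 genes were still higher at E18.5.

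The other genes of the pathway, from lists chosen by function, changed together with the 8 genes in part. Of 18 genes of mitochondrial β-oxidation, 17 were higher at E18.5 and 0 lower, with a median log2 fold change of 1.88 against -0.01 for all genes. They were led by Cpt1b (4.50), which brings fatty acids into mitochondria, and by Acadvl (3.34), Acaa2 (2.89) and Acadm (2.80) of the oxidation cycle. Of 13 genes of triglyceride synthesis and lipid droplets 12 were higher (median 1.27), among them Lpin1 (4.18), a phosphatidate phosphatase, and Pnpla2 (4.01), the adipose triglyceride lipase. The droplet coat genes Plin4 and Plin5 went from at most 0.31 CPM at E14.5 to 33.1 and 45.4 CPM and to 21.4 and 34.3 CPM.

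Of 12 transcriptional regulators of fatty acid use, 11 were higher (median 1.98), including Ppara (3.28), Esrrg (2.95), Cebpb (2.95) and Ppargc1a (2.67). The lists for the rest of the lipase system, for transport and for synthesis were mixed. Of 7 further genes of the lipase system 2 were higher and 1 lower, and of 14 genes of transport and activation 5 were higher and 2 lower, with Acsl1, which activates fatty acids, at 3.53. Of 11 genes of fatty acid synthesis 3 were higher and 3 lower, with Acacb, whose product restrains entry into mitochondria, at 4.82 and the synthase Fasn at -1.15. All 10 endothelial markers were higher (median 1.60), and their summed level was 324 to 452 CPM at E14.5 and 1163 and 1072 CPM at E18.5. The part of the endothelial share in the rise of Gpihbp1, Cd36 and Fabp4 was not tested.

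Fat cells were looked for because they express Lpl, Cd36, Fabp4, Dgat2 and Thrsp. Not all of their markers passed the filter on low counts, so that their sums are given in CPM scaled to library size, without TMM. The 7 adipocyte markers (Adipoq, Plin1, Cidec, Cfd, Lep, Retn, Slc7a10) summed to 3.48, 4.65 and 4.13 CPM in the muscle spots at E14.5 and to 3.18 and 4.39 CPM at E18.5, with 2 to 4 of the 7 genes at 0 UMIs in each control section. The 4 brown adipocyte markers (Ucp1, Cidea, Elovl3, Otop1) summed to 6.68, 4.55 and 4.29 CPM at E14.5 and to 16.6 and 13.7 CPM at E18.5. The adipocyte sums thus overlapped between the stages, and the brown adipocyte sums were higher in both E18.5 sections. Cidea, a lipid droplet protein of brown fat, was at 5.70, 3.53 and 3.33 CPM after TMM scaling at E14.5 and at 22.7 and 18.6 CPM at E18.5 (log2 fold change 2.30, adjusted p = 5.64e-05). Slc7a10, an amino acid transporter, was the only adipocyte marker that passed the filter (0.68, adjusted p = 0.0253). The part of fat cells in the rise of the 8 genes, whose summed level after TMM scaling went from 359 to 442 CPM to 2370 and 2509 CPM, was not tested.

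In the KO-labelled E14.5 section, Thrsp was the only 1 of the 8 genes past the threshold, lower, where 1.54% of all genes were lower and 0.533% higher. Its muscle spots held 2 UMIs of Thrsp among 20762765 UMIs in all, against 54, 58 and 23 among 12835167 to 29459053 in the controls. The ratio to the pooled controls was 0.0449 (95% exact interval 0.00539 to 0.165, which covers counting error only), and the fitted log2 fold change of -4.42 (SE 0.68, adjusted p = 0.0257) rests on those 2 UMIs and the prior count. The call was lost without E14.5 control section 3 (adjusted p = 0.072) and with the replicate number as a block (adjusted p = 0.11).

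The other 7 genes were each at or below the control mean there, and none passed the test. Lpl was at 78.9 CPM against 103 to 135 CPM (log2 fold change -0.54, adjusted p = 0.181), Gpihbp1 at 12.3 against 14.9 to 27.6 CPM (-0.80, adjusted p = 0.248) and Fabp4 at 44.1 against 54.4 to 93.1 CPM (-0.65, adjusted p = 0.319). Cd36 was at 102 CPM (-0.15), Fabp3 at 47.8 CPM (-0.35), Dgat2 at 18.3 CPM (-0.04) and Mb at 3.63 CPM (-0.36), and Dgat2 alone lay within the range of the control sections. The endothelial markers summed to 232 CPM in this section, below the 324 to 452 CPM of the controls. Scaled to the 9 muscle genes, Lpl (0.03), Cd36 (0.41), Fabp3 (0.24), Dgat2 (0.55) and Mb (0.23) turned positive, with a median shift of all genes of 0.56.

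Among the lists, Cpt1b was lower in the same section (log2 fold change -3.04, SE 0.38, adjusted p = 0.0126), as 1 of 18 β-oxidation genes. Acacb was lower too (-1.49, adjusted p = 0.0165), as were the regulators Ppargc1a (-1.10, adjusted p = 0.0423), Esrrg (-0.99, adjusted p = 0.0384) and Meox2 (-0.74, adjusted p = 0.0363), 3 of the 12 regulators. No gene of the lists for the lipase system, transport or lipid droplets was called.

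In the E18.5 KO section 3 of the 8 genes were lower, where 15.2% of all genes were lower and 10.6% higher, and none of the 8 was higher. Fabp3 was at 151 CPM against 609 and 543 CPM in the controls, a log2 fold change of -1.93 (SE 0.27, adjusted p = 0.00359). Dgat2 was at 29.2 CPM against 73.1 and 66.4 CPM (-1.25, SE 0.29, adjusted p = 0.0181). Thrsp was at 56.9 CPM against 111 and 149 CPM (-1.19, SE 0.22, adjusted p = 0.00841), and this call was lost with the replicate number as a block (-1.12, adjusted p = 0.052). All 3 lay below both control sections.

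Lpl was at 436 CPM against 526 and 527 CPM (-0.27, adjusted p = 0.298), and Gpihbp1 at 95.2 against 121 and 131 CPM (-0.40, adjusted p = 0.335). Cd36 was at 312 against 419 and 469.9 CPM (-0.51, adjusted p = 0.0531), and Fabp4 at 222 against 408 and 435 CPM (-0.93, adjusted p = 0.057). These 4 genes lay below both controls without passing the test. Mb was at 186 CPM, between 103 and 187 CPM (0.36, adjusted p = 0.439), and its value turned on which control was kept, at 0.86 (adjusted p = 0.028) without section 2 and -0.0048 without section 1.

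The 9 muscle genes summed to 67444.5 CPM in the E18.5 KO section against 176907 and 180332 CPM. Scaled to them, the median of all genes shifted by 1.40, and on that scale Fabp3 alone of the 8 remained lower (-0.53, adjusted p = 0.046), Mb was higher (1.77), and Lpl (1.13), Gpihbp1 (1.0), Cd36 (0.90), Fabp4 (0.48), Dgat2 (0.15) and Thrsp (0.22) turned positive, each below the shift of all genes. By library size alone the shift was 0.54, Fabp3, Dgat2 and Thrsp stayed lower, Lpl (0.27), Gpihbp1 (0.14) and Cd36 (0.03) turned positive, and Mb was higher (0.90, adjusted p = 0.042). Macrophage markers summed to 452 CPM against 227 and 267 CPM, and endothelial markers to 691 CPM against 1163 and 1072 CPM. Scaled to library size, adipocyte markers summed to 19.9 CPM against 3.18 and 4.39 CPM, with Cfd and Lep at 0, and brown adipocyte markers to 18.04 CPM against 16.6 and 13.7 CPM. Slc7a10 alone made up most of the adipocyte sum, at 18.4 CPM after TMM scaling against 4.09 and 5.76 CPM (log2 fold change 1.91, adjusted p = 0.00366). The part of these cell types in the values of the 8 genes was not tested.

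Genes of the pathway lists fell as well in the E18.5 KO section. Of 18 β-oxidation genes 13 were lower and 1 higher (median -0.73), led by Hadhb (-1.28), Etfdh (-1.21), Cpt1b (-1.13) and Acadm (-1.11). Of 13 droplet and triglyceride genes 8 were lower and 0 higher (median -0.51), among them Plin4 (-2.18) and Pnpla2 (-1.54), and of 12 regulators 7 were lower, among them Esrrg (-1.79) and Ppargc1b (-1.10). Of 14 transport genes 6 were lower and 2 higher, with Cav1 at -1.21 and Acsl1 at -1.13, and Fabp7, a fatty acid binding protein of glia, higher at 2.14. Apoe, a lipoprotein component, was higher (1.92), and so was Fasn (0.67). Which cells gave the Apoe RNA was not tested. Of 10 endothelial markers 8 were lower (median -0.77).

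A test of whether the KO effect differed between the stages called 1 of the 8 genes. For Fabp3 the log2 fold change of KO against control was lower at E18.5 than at E14.5 by a difference of -1.58 (SE 0.34, adjusted p = 0.0414), where 4.18% of all genes were lower and 2.22% higher in this test. The call was lost without E14.5 control section 2 (adjusted p = 0.081) or 3 (0.093), without E18.5 control section 1 (0.061) and with the replicate block (0.076). For Thrsp the difference went the other way without passing the test (3.23, SE 0.82, adjusted p = 0.0585).

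In the cKO-labelled section, 3 of the 8 genes were lower, where 5.62% of all genes were lower and 3.18% higher, and none of the 8 was higher. Lpl was at 229 CPM against 526 and 527 CPM (log2 fold change -1.20, SE 0.19, adjusted p = 0.0112), Cd36 at 247 against 419 and 469.9 CPM (-0.85, SE 0.16, adjusted p = 0.0224) and Fabp4 at 179 against 408 and 435 CPM (-1.23, SE 0.30, adjusted p = 0.0473). All 3 lay below both controls. With the replicate number as a block none of the 3 passed (adjusted p = 0.057, 0.09 and 0.11). Without E14.5 control section 3 or E18.5 control section 2 only Lpl passed, and Fabp4 was also lost without E18.5 control section 1 (adjusted p = 0.062).

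The other 5 genes were below both controls too. Fabp3 was at 284 CPM (log2 fold change -1.02, adjusted p = 0.0506), Thrsp at 76.9 CPM (-0.76, adjusted p = 0.0682) and Mb at 68.4 CPM (-1.08, adjusted p = 0.0953). Gpihbp1 was at 77.4 CPM (-0.70, adjusted p = 0.176) and Dgat2 at 55.8 CPM (-0.32, adjusted p = 0.5). None of these 5 passed the test, and scaled to the 9 muscle genes, with a median shift of all genes of 0.52, Dgat2 turned positive (0.20) and Cd36 was at -0.32 (adjusted p = 0.3). The slow myosin genes Myl3 (-5.96), Myl2 (-4.72) and Myh7 (-3.62), whose pattern at E18.5 was most like that of Mb (given below), fell in this section. They fell in the E18.5 KO section too (Myl3 -3.21, Myl2 -4.74, Myh7 -2.09), where Mb lay within the range of the controls. The slow troponin genes did not all go this way. Tnni1 was at 2062 CPM in the cKO-labelled and 1272 CPM in the E18.5 KO section against 1625 and 1753 CPM in the controls. Tnnt1 was at 2631 and 3935 CPM against 3556 and 3911 CPM, and Tnnc1 at 621 and 507 CPM against 796 and 928 CPM. Scaled to library size, adipocyte markers summed to 6.79 CPM, with Plin1, Cfd, Lep and Retn at 0, and brown adipocyte markers to 37.3 CPM against 16.6 and 13.7 CPM in the controls. Cidea was at 43.8 CPM after TMM scaling against 22.7 and 18.6 CPM (1.08, adjusted p = 0.0469). Endothelial markers summed to 673 CPM, below both controls, and the part of these cell types was not tested.

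Of 18 β-oxidation genes 16 were lower in the cKO-labelled section and 0 higher (median -0.83), led by Acadvl (-1.25), Acadm (-0.94) and Acadl (-0.94). Of 13 droplet and triglyceride genes 5 were lower (median -0.82), among them Plin4 (-1.94), Pnpla2 (-1.44) and Lpin1 (-1.36), and of 12 regulators 4 were lower, among them Ppargc1a (-1.21) and Ppara (-0.97). Of 14 transport genes 4 were lower and 1 higher, with Acsl1 at -1.80 and the transporter Slc27a1 at -1.48. Of 11 genes of synthesis 2 were lower and 2 higher, with Acacb at -1.51 and Fasn at 0.60, and none of the 7 genes of the lipase system was called. Of 10 endothelial markers 3 were lower (median -0.75).

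The 2 mutants share the 2 control sections, so their fold changes are not independent. A direct comparison of the E18.5 KO with the cKO-labelled section, added after the data were seen, called Lpl alone of the 8 genes, higher in the KO section (log2 fold change 0.93, SE 0.21, adjusted p = 0.0384), where 2.87% of all genes were higher and 4.43% lower. That call was lost without E14.5 control section 2 (adjusted p = 0.056) or 3 (0.083) and with the replicate block (0.075). Mb stood at 186 CPM in the KO and 68.4 CPM in the cKO-labelled section (1.45, adjusted p = 0.0641), and Fabp3 at 151 and 284 CPM (-0.91, adjusted p = 0.1). Neither passed the test.

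**Figure D2:**
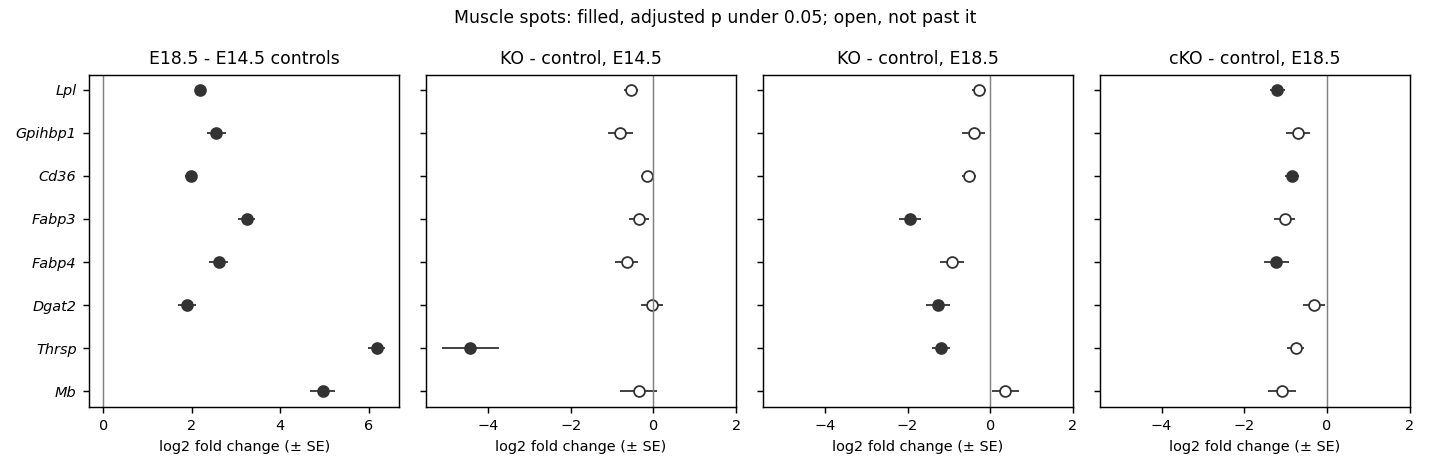
Log2 fold change of each gene in muscle spots, with its SE as a line, for E18.5 against E14.5 controls and for each mutant section against the controls of its stage; filled points had an adjusted p under 0.05. All 8 genes were higher at E18.5, Thrsp was lower in the E14.5 KO (-4.42), Fabp3, Dgat2 and Thrsp in the E18.5 KO, and Lpl, Cd36 and Fabp4 in the cKO.

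Position was examined within the 5 control sections, with the regions of 1 section compared with each other in 1 fit and the sections as replicates. Single spots are not replicates and enter only as sums. Muscle spots were first compared with all other kept spots, which held tendon, mesothelium, connective tissue, vessels and some muscle RNA. The paper also describes hepatocyte and chondrocyte clusters at E18.5. Scaled to library size, the 9 muscle genes summed to 8681, 5636 and 6262 CPM in the other spots at E14.5 against 27362, 21642 and 22937 CPM in muscle spots. At E18.5 they summed to 47828 and 31869 CPM against 128417 and 131917 CPM. At E14.5, 6 of the 8 genes were higher in muscle, where 23.0% of all genes were (18% were lower), and at E18.5 all 8 were, where 31.1% were (26.8% were lower).

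Thrsp had the largest contrast of the 8 at E18.5. It was at 125 and 171 CPM in muscle against 25.2 and 21.3 CPM in the other spots of the 2 sections (log2 fold change 2.66, SE 0.17, adjusted p = 5.73e-05). Fabp3 was at 684 and 625 CPM against 175 and 88.2 CPM (2.39, SE 0.20, adjusted p = 0.000103), and Mb at 115 and 215 CPM against 30.6 and 36.1 CPM (2.25, SE 0.16, adjusted p = 6.48e-05). In both sections the muscle value of these 3 genes lay above every value of the other spots. Dgat2 (1.60), Cd36 (1.59) and Lpl (1.39) followed, and Gpihbp1 (1.0, adjusted p = 0.00866) and Fabp4 (0.99, adjusted p = 0.0347) came last. Gpihbp1 lost its call without E18.5 control section 1 (0.81, adjusted p = 0.069), and Fabp4 without either E18.5 section (adjusted p = 0.13 and 0.14) or without E14.5 section 3 (0.052).

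At E14.5 the same 2 endothelial genes were not set apart by the muscle. Gpihbp1 was at 16.4, 31.2 and 23.7 CPM in muscle against 20.2, 16.6 and 16.8 CPM in the other spots (log2 fold change 0.35, adjusted p = 0.255). Fabp4 was at 60.2, 105 and 66.3 CPM against 86.9, 48.9 and 36.1 CPM (0.41, adjusted p = 0.305). In section 1 both genes were lower in muscle, in sections 2 and 3 both were higher. Without section 1 they were at 0.79 and 1.02 and passed the test (adjusted p = 0.014 and 0.0021), and without section 2 they were at -0.04 and -0.0041. Scaled to library size, the endothelial markers summed to 371, 552 and 440 CPM in muscle and 635, 462 and 429 CPM in the other spots. At E18.5 they were lower in muscle, at 844 and 784 CPM against 906 and 1146 CPM. Their part in these values was not tested. Cd36 (1.21), Fabp3 (1.75), Thrsp (1.60), Mb (1.61), Lpl (0.77) and Dgat2 (0.81) were higher in muscle at E14.5, of which Dgat2 lost its call without any 1 of the 3 E14.5 sections (adjusted p = 0.19, 0.096 and 0.068) and Thrsp without section 2 (0.078). The difference between muscle and other spots grew between the stages for Lpl alone of the 8 (0.61, SE 0.17, adjusted p = 0.0441, with 13.6% of all genes higher and 7.42% lower in this test), in a test added after the data were seen. That call was lost without E14.5 section 2 (0.55, adjusted p = 0.14) or 3 (0.56, adjusted p = 0.11) and without E18.5 section 2 (0.40, adjusted p = 0.18).

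To see which of the 8 genes follow the vessels, the upper 15% of muscle spots by a score of 6 endothelial genes (Cdh5, Emcn, Kdr, Pecam1, Ptprb, Tie1) were compared with the other muscle spots. The score holds none of the 8 genes. Gpihbp1 and Fabp4 were higher in endothelium-rich spots at both stages, and Fabp3 was lower at both. At E14.5, Fabp4 was at 98.6, 226 and 85.5 CPM against 46.9, 67.4 and 55.2 CPM in the 3 sections (log2 fold change 1.29, SE 0.11, adjusted p = 9.35e-08), higher in 3 of 3 sections. Gpihbp1 was at 32.2, 62.2 and 25.3 CPM against 12.1, 21.0 and 20.8 CPM (1.27, SE 0.14, adjusted p = 1.16e-06). In both genes the difference was smallest in section 3.

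Cd36 was slightly higher there (0.24, adjusted p = 0.049), so that 3 genes were higher where 3.12% of all genes were, and Fabp3 was lower (-0.32, SE 0.09, adjusted p = 0.0267), where 2.88% were lower. The call of Cd36 was lost without E14.5 section 2 (0.03, adjusted p = 0.96) or without either E18.5 section (0.084 and 0.077), and that of Fabp3 without E14.5 section 1 (0.085) or 2 (-0.19, adjusted p = 0.6).

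At E18.5 the contrast was smaller. Fabp4 was at 579.7 and 611 CPM in endothelium-rich spots against 372 and 397 CPM (log2 fold change 0.63, SE 0.10, adjusted p = 0.000114), and Gpihbp1 at 150.2 and 171 CPM against 114 and 122 CPM (0.44, SE 0.09, adjusted p = 0.00106). Both were higher in both sections, where 6.48% of all genes were higher. Fabp3 (-0.23), Dgat2 (-0.27) and Mb (-0.40) were lower, where 9.20% of all genes were, with Mb at 73.4 and 159 CPM against 108 and 190.5 CPM. Lpl, the lipase that the fibers make, did not pass in either direction (-0.14, adjusted p = 0.0938). DESeq2 called 0 of the 8 genes in this contrast (3 at an unadjusted p under 0.05). Without E18.5 section 1 edgeR called 0 (3 unadjusted), with Gpihbp1 at 0.48 (adjusted p = 0.1) and Fabp4 at 0.62 (adjusted p = 0.058), while without E18.5 section 2 Gpihbp1 was at 0.39 (adjusted p = 0.057) and without E14.5 section 1 Fabp3 at -0.19 (adjusted p = 0.087).

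Tested directly, in a comparison added after the data were seen, the endothelial contrast was smaller at E18.5 than at E14.5 for Gpihbp1 (-0.83, SE 0.16, adjusted p = 0.0107) and Fabp4 (-0.66, SE 0.15, adjusted p = 0.0443), where 0.206% of all genes were lower and 0.361% higher in this test. Both rest on E14.5 section 2, without which they were at -0.37 (adjusted p = 0.52) and -0.17 (adjusted p = 0.78), and neither passed without E14.5 section 1 or without E18.5 section 1, nor Fabp4 without E18.5 section 2. Scaled to library size, the endothelial markers themselves summed to 672 to 1236 CPM in endothelium-rich and 313 to 417 CPM in other muscle spots at E14.5, and to 1540 and 1340 CPM against 719 and 686 CPM at E18.5. The 9 muscle genes summed to 23039, 17101 and 21953 CPM in endothelium-rich spots of the E14.5 sections 1, 2 and 3. In the other muscle spots they summed to 27973, 22539 and 23125 CPM. At E18.5 they summed to 120289 and 127656 CPM against 129879 and 132675 CPM. The part of muscle content in the lower Fabp3, Dgat2 and Mb of endothelium-rich spots was not tested.

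The same order of the genes was seen spot by spot. Across the 3092 and 2199 muscle spots of the E18.5 control sections 1 and 2, the Pearson correlation with the endothelial score was 0.46 and 0.57 for Fabp4, 0.26 and 0.43 for Gpihbp1 and 0.24 and 0.33 for Cd36. It was 0.02 and 0.11 for Lpl and lay between -0.10 and 0.06 for Fabp3, Dgat2, Thrsp and Mb. These are descriptions, since spots of a section share their library and differ in depth. Lpl and its anchor Gpihbp1 were nearly unrelated from spot to spot (0.02 and 0.09), whereas Gpihbp1 went with Fabp4 (0.30 and 0.43) and Cd36 with Fabp4 (0.27 and 0.40). In the mutants, each 1 section with no test, Fabp4 and Gpihbp1 again had the highest values of the 8, with 0.27, 0.47 and 0.46 for Fabp4 and 0.23, 0.42 and 0.38 for Gpihbp1 in the KO-labelled E14.5, the E18.5 KO and the cKO-labelled sections. Endothelium-rich spots held Fabp4 at 110.3, 372.5 and 240.3 CPM in those 3 sections, scaled to library size, against 43.7, 212 and 137 CPM in the other muscle spots.

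**Figure D3:**
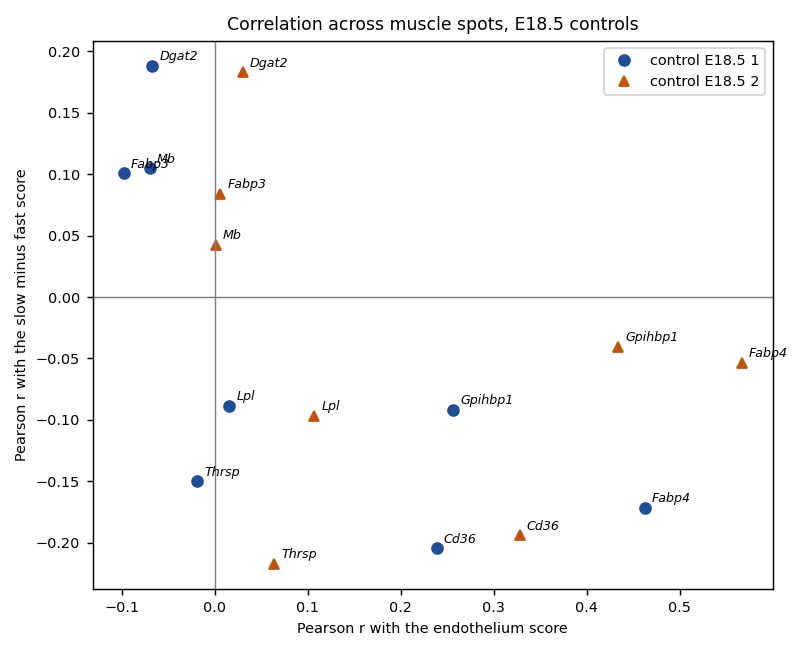
Pearson correlation of each gene with the endothelial score (x axis) and with the slow minus fast fiber score (y axis) across muscle spots of the 2 E18.5 control sections; each point is 1 gene in 1 section. Fabp4, Gpihbp1 and Cd36 lie to the right, at 0.24 to 0.57, Dgat2 lies highest in both sections, and the lowest gene is Cd36 in section 1 (-0.20) and Thrsp in section 2 (-0.22).

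Muscle spots were then split at the median of a slow minus fast fiber score (slow: Myh7, Myl2, Myl3, Tnnc1, Tnnt1, Tnni1; fast: Myh4, Pvalb, Mybpc2, Actn3, Atp2a1). At E14.5 only Fabp3 of the 8 genes passed, higher in slow-rich spots at 90.8, 67.5 and 53.8 CPM against 68.2, 44.1 and 44.0 CPM (log2 fold change 0.47, SE 0.06, adjusted p = 1.84e-05). It was higher in 3 of 3 sections, where 2.01% of all genes were higher and 1.51% lower.

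At E18.5 the pattern was different. Dgat2 was the only 1 of the 8 that was higher in slow-rich spots, at 79.6 and 70.5 CPM against 62.5 and 58.3 CPM (0.31, SE 0.05, adjusted p = 0.000127), where 5.23% of all genes were higher. Thrsp was lower, at 94.7 and 121 CPM against 125 and 172 CPM (-0.45, SE 0.04, adjusted p = 1.4e-07), and so was Cd36, at 371 and 409 CPM against 457 and 516 CPM (-0.32, SE 0.04, adjusted p = 7.27e-06). Gpihbp1 (-0.27), Fabp4 (-0.25) and Lpl (-0.17) were lower by less, so that 5 of the 8 were lower where 8.74% of all genes were. Fabp3 (-0.03, adjusted p = 0.753) and Mb (0.10, adjusted p = 0.199), both known from oxidative fibers, did not pass the test.

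Without E18.5 section 1 only Cd36 and Thrsp passed, with Lpl at -0.20 (adjusted p = 0.092), Gpihbp1 at -0.23 (0.059), Fabp4 at -0.19 (0.36) and Dgat2 at 0.27 (0.052), and without E18.5 section 2 Lpl was lost (-0.15, adjusted p = 0.23). DESeq2 also called these 2 alone. The change between the stages, tested after the data were seen, was called for Fabp3 (-0.50, adjusted p = 0.000103), Cd36 (-0.33, adjusted p = 0.000935) and Thrsp (-0.88, adjusted p = 0.0259), where 4.97% of all genes were lower and 3.12% higher. That of Thrsp was lost without E14.5 section 1 (-1.0, adjusted p = 0.053) or 2 (-0.62, adjusted p = 0.37) and without E18.5 section 2 (-0.83, adjusted p = 0.085). The fast genes of the score differed in level between the stages. In muscle spots Pvalb was at 1.95 to 3.76 CPM at E14.5 and at 281 and 662 CPM at E18.5. Mybpc2 was at 2.61 to 2.76 CPM and then at 1213 and 1469 CPM. The paper found type I and type IIb clusters at E18.5 only. In E14.5 section 1 slow-rich spots had a median of 15235.5 UMIs against 26588 in fast-rich spots. The part of the score and of depth in the stage differences was not tested. In the mutants, with no test, Thrsp stood at 44.5 CPM in slow-rich and 75.8 CPM in fast-rich spots of the E18.5 KO and at 46.1 and 81.2 CPM in the cKO-labelled section. Scaled to library size, the endothelial markers summed to 772 and 756 CPM in slow-rich and 922 and 814 CPM in fast-rich spots of the E18.5 controls, lower in slow-rich spots as Gpihbp1, Fabp4 and Cd36 were. The fibroblast markers summed to 12323 and 17185 CPM in slow-rich and 9705 and 12117 CPM in fast-rich spots. The 9 muscle genes summed to 122353 and 124801 CPM in slow-rich and 134967 and 139343 CPM in fast-rich spots of the E18.5 controls. At E14.5 they summed to 30012.5, 24222.5 and 24093 CPM in slow-rich and 26107, 19283 and 21667 CPM in fast-rich spots of sections 1, 2 and 3. The part of endothelium, fibroblasts or muscle content in these values was not tested.

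**Figure D4:**
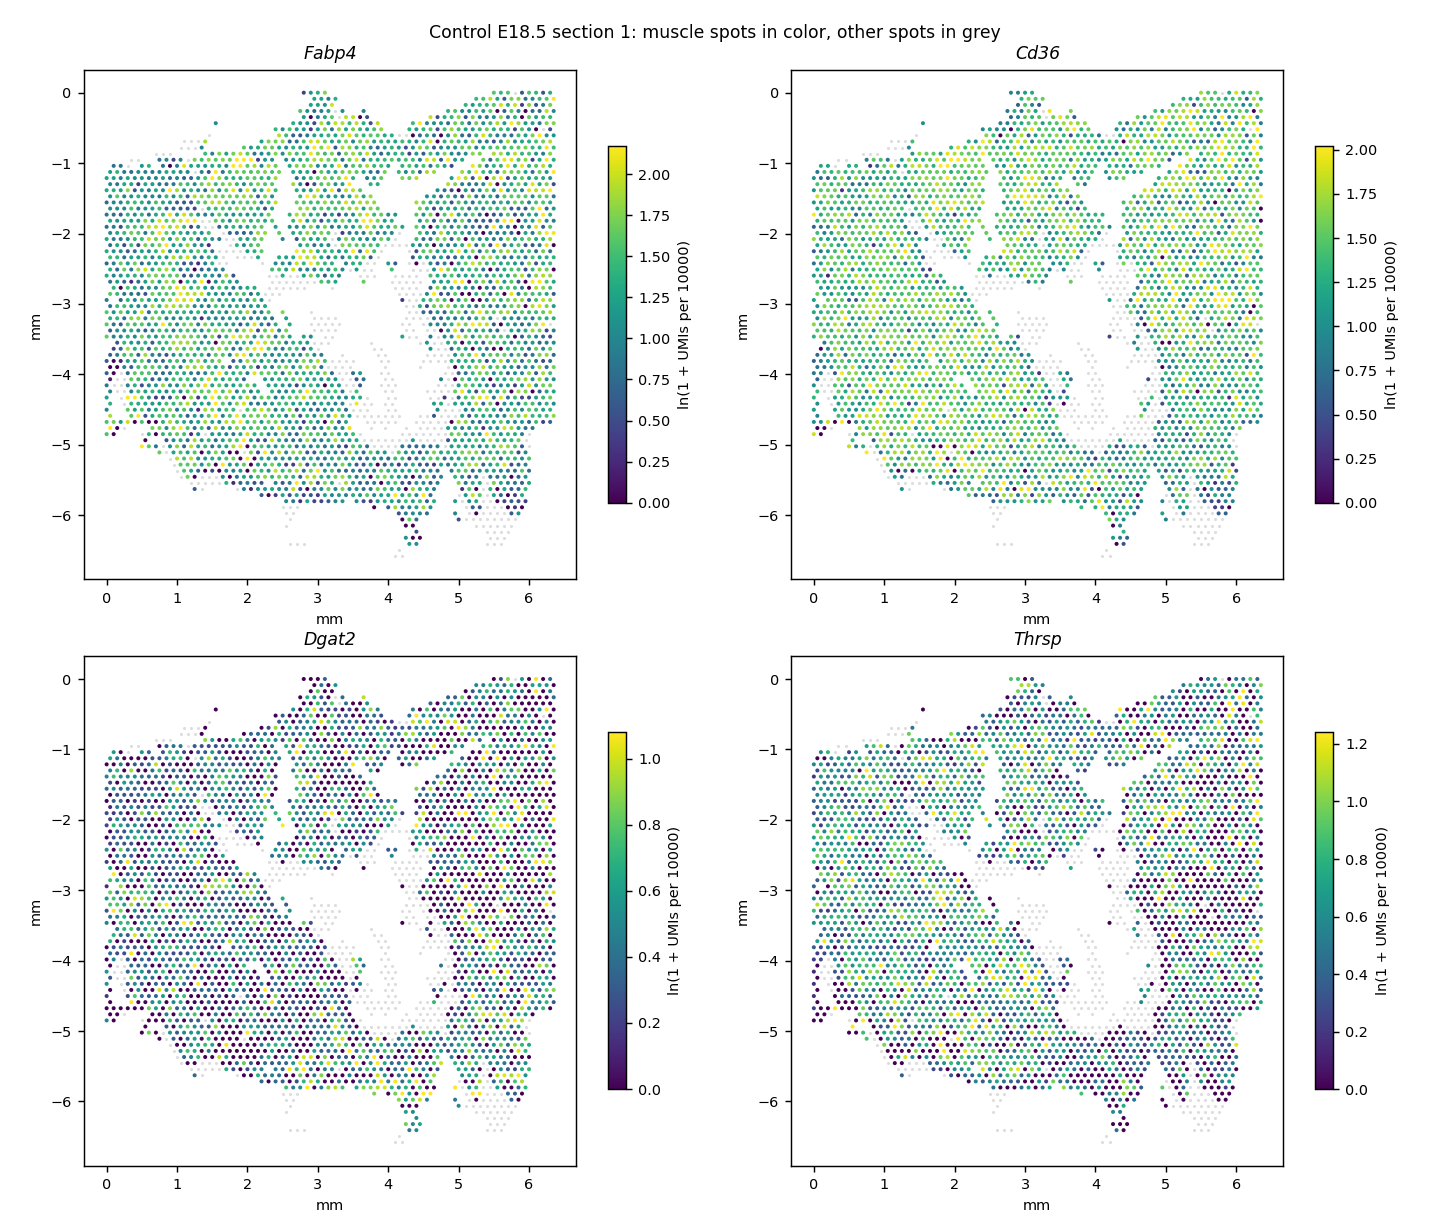
Fabp4, Cd36, Dgat2 and Thrsp over E18.5 control section 1, as ln(1 + UMIs per 10000) in each muscle spot, with other spots in grey and both axes in mm from an arbitrary origin. Each color scale is its own. The grey central tendon holds no muscle spots, and many single spots held no UMI of Dgat2 or Thrsp, so that the contrasts of the text were taken on sums over spots.

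Along the fibers, 15% of the muscle spots were called center by 8 endplate genes (Chrna1, Chrnd, Chrng, Musk, Ache, Etv5, Prkar1a, Ufsp1) and 15% periphery by 4 genes of the fiber ends (Col22a1, Ankrd1, Rxrg, Uchl1). The rest was called intermediate, and no score holds any of the 8 genes. At E18.5 all 8 genes were lower in the center and all 8 were lower in the periphery than between them, where 8.88% and 22.0% of all genes were lower and 4.38% and 11.3% higher.

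Thrsp had the steepest profile. It was at 66.2 and 88.0 CPM in the periphery, 128 and 169.7 CPM in the intermediate muscle and 86.5 and 117 CPM in the center. The log2 fold change was -0.95 (SE 0.05, adjusted p = 7.87e-15) for the periphery and -0.55 (SE 0.05, adjusted p = 7.69e-10) for the center. Lpl was at 367 and 335 CPM in the periphery, 570.5 and 570.04 CPM in between and 496 and 518 CPM in the center, so that it fell toward the fiber ends (-0.70, SE 0.06, adjusted p = 5.72e-11) more than toward the endplates (-0.17, SE 0.05, adjusted p = 0.0332). Mb did the opposite, at 103 and 169 CPM in the periphery (-0.16, SE 0.05, adjusted p = 0.0234), 109 and 198 CPM in between and 73.8 and 154 CPM in the center (-0.45, SE 0.06, adjusted p = 9.72e-07).

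Of the other 5 genes in the periphery, Cd36 was at -0.64, Dgat2 at -0.51, Fabp4 at -0.44, Gpihbp1 at -0.43 and Fabp3 at -0.40. In the center they were at -0.30, -0.38, -0.24, -0.26 and -0.37 in the same order. Every 1 of the 8 genes was lower in both sections in each region. Lpl, Gpihbp1 and Fabp4 lost the center call without E18.5 section 1 (adjusted p = 0.46, 0.16 and 0.18) or 2 (0.12, 0.21 and 0.35), and Lpl and Fabp4 also without E14.5 section 1 (0.13 and 0.088). Mb lost the periphery call without E18.5 section 2 (-0.08, adjusted p = 0.54) or without E14.5 section 1 (-0.10, adjusted p = 0.19) or 3 (-0.11, adjusted p = 0.13).

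The muscle content of the regions differed as well. Scaled to library size, the 9 muscle genes summed to 114862 and 115083 CPM in the periphery, 133639 and 136652 CPM in the intermediate muscle and 118497 and 126101 CPM in the center. Fibroblast markers were at 18429 and 25070.3 CPM in the periphery against 9584 and 12957 CPM in between. Endothelial markers were at 723 and 721 CPM in the periphery, 862 and 809.7 CPM in between and 883 and 730.1 CPM in the center. Their part in the lower level of the 8 genes was not tested. Distance from the nearest spot outside the muscle gave a graded picture without the genes of the fiber ends. The edge of the muscle was itself set by the 9 muscle genes, so this distance is not free of markers. Thrsp was at 48.7, 71.3, 83.7 and 87.1 CPM, scaled to library size, within 100, 100 to 200, 200 to 300 and beyond 300 µm in E18.5 section 1, and at 67.2, 86.7, 107 and 117 CPM in section 2. Lpl went from 297 to 399 CPM and from 277 to 411 CPM over the same range, whereas Mb was flat in section 1 (72.5 to 75.4 CPM) and not in section 2 (92.1 to 144 CPM). Ttn, 1 of the 9 genes that set the muscle spots, went from 6945 to 7616 CPM and from 5407 to 7221 CPM.

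At E14.5 the genes did not share 1 profile. Lpl was higher in the center, at 168, 129 and 114 CPM against 130.1, 106 and 110.5 CPM in the intermediate muscle (log2 fold change 0.27, SE 0.06, adjusted p = 0.00278), and lower in the periphery, at 95.4, 67.1 and 89.0 CPM (-0.50, SE 0.07, adjusted p = 3.85e-05). Cd36 followed the same course (0.20, adjusted p = 0.0244, and -0.47, adjusted p = 6.6e-05). These 2 genes were higher in the center where 9.32% of all genes were, and the pair thus fell from center to periphery. Fabp4 was lower in both (center -0.52, adjusted p = 0.000853, and periphery -0.50, adjusted p = 0.00456), and Gpihbp1 was lower in the center (-0.48, adjusted p = 0.0138), where 6.45% of all genes were lower. The endothelial markers, scaled to library size, were lower in the same regions, at 302, 374 and 403 CPM in the center and 331, 404 and 411 CPM in the periphery against 397, 625 and 455 CPM in between, and their part in these values was not tested. The 9 muscle genes summed to 29706, 25615 and 25136 CPM in the center and 28424.5, 24612 and 22721 CPM in the periphery. In between they summed to 26527.5, 20093 and 22479 CPM. Fibroblast markers summed to 9618, 11704.5 and 11250 CPM in the center and 16153, 17900 and 17838 CPM in the periphery. In between they summed to 13367, 16721.5 and 15425 CPM. The part of muscle content or fibroblasts in the E14.5 region values was not tested.

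The center calls at E14.5 were unstable when single sections were left out. Gpihbp1 and Fabp4 rested on section 2, without which they were at -0.12 and -0.26 in the center and Fabp4 at -0.19 (adjusted p = 0.64) in the periphery. Without section 1 Lpl (0.20, adjusted p = 0.16), Gpihbp1 (adjusted p = 0.062) and Cd36 (0.073) were lost in the center, and Cd36 also without section 2 (0.072) or 3 (0.072).

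Fabp3 was the only 1 of the 8 that was higher in the E14.5 periphery, at 97.1, 81.9 and 56.6 CPM against 76.8, 51.9 and 48.2 CPM (log2 fold change 0.45, SE 0.08, adjusted p = 0.000465), where 4.23% of all genes were higher and 3.0% lower. It was higher in 3 of 3 sections, but not without section 2 by the test (0.30, adjusted p = 0.17), and it was lower (-0.36, adjusted p = 0.021) when the periphery was instead set by distance, as muscle spots up to 150 µm from the nearest spot outside the muscle. With that definition Dgat2 was lower as well (-0.47, adjusted p = 0.0097).

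Between the stages, in tests added after the data were seen, the center contrast fell for Lpl (-0.44, SE 0.08, adjusted p = 0.000348) and Cd36 (-0.50, SE 0.08, adjusted p = 8.17e-05), where 9.82% of all genes were lower and 5.02% higher. The periphery contrast fell for Fabp3 (-0.86, SE 0.10, adjusted p = 1.04e-06) and Dgat2 (-0.59, SE 0.13, adjusted p = 0.00241), where 7.81% were lower and 3.99% higher, and that of Dgat2 was lost without E14.5 section 1 (-0.47, adjusted p = 0.066). The summed muscle genes were higher in center and periphery than between them at E14.5 and lower at E18.5. Their part in these stage differences was not tested. In the mutants, with no test, Lpl stood at 511 CPM in the center and 458 CPM between in the E18.5 KO, scaled to library size, and Fabp3 at 206 CPM in its periphery against 156 CPM. Both were the reverse of the E18.5 controls in direction, and in the cKO-labelled section Fabp3 was at 244 and 242 CPM. The paper describes Chrna1 and Musk as spread widely over the muscle of the E18.5 KO. The 4 genes of the fiber ends summed to 235 CPM in its muscle spots, after TMM scaling, against 358 and 393 CPM in the controls. Its center and periphery spots are thus ranks of a score and are not shown to be fiber middles or ends.

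**Figure D5:**
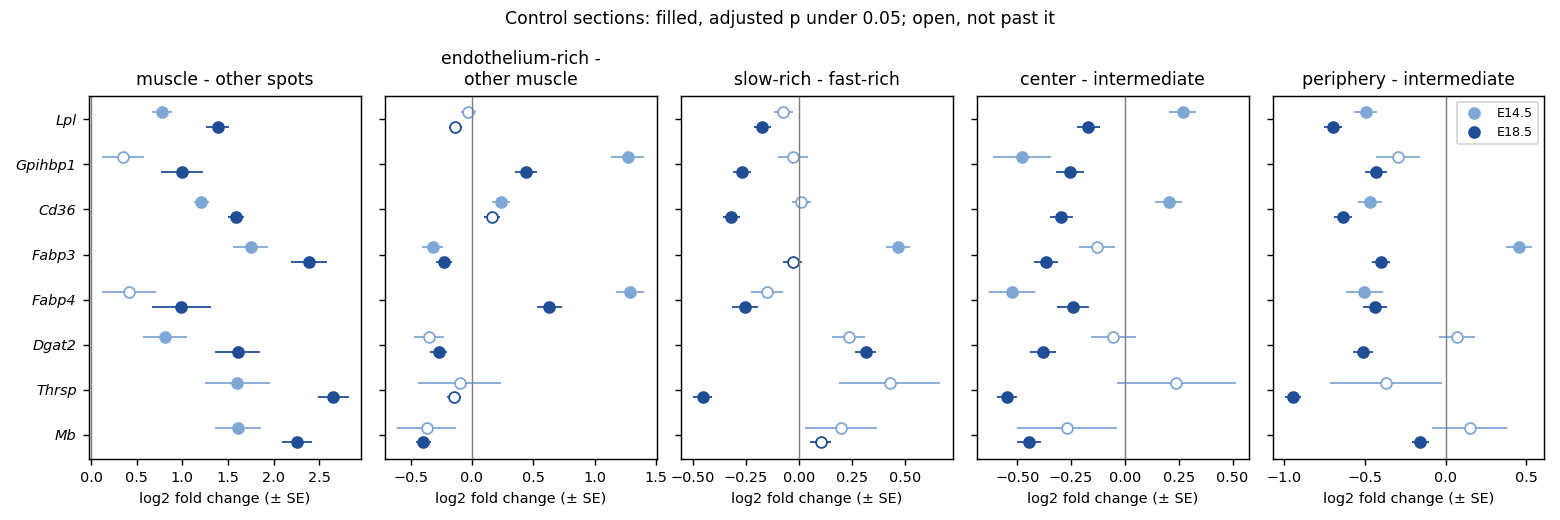
Log2 fold change of each gene between regions of the control sections, with its SE as a line, at E14.5 (light, 3 sections) and E18.5 (dark, 2 sections); filled points had an adjusted p under 0.05. Gpihbp1 and Fabp4 were highest in endothelium-rich spots, and at E18.5 all 8 genes were lower in center and periphery than between them.

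The genes whose pattern was most like that of each of the 8 were sought over the muscle spots of the 2 E18.5 control sections, as the mean of the Pearson correlations of the 2 sections, among 8784 genes with a UMI in at least 20% of the spots of each. For Fabp4 they were Cdh5 (0.48), Col4a1 (0.45), Cav1 (0.43), Cd93 (0.41) and Egfl7 (0.39), genes of vessels and basement membrane, and for Gpihbp1 they were Fabp4 (0.37), Cdh5 (0.33), Col4a1 (0.31), Cd93 (0.28) and Egfl7 (0.28). Cd36 stood between vessel and fiber, with Atp2a1 (0.37), Ckm (0.36), Fabp4 (0.34), Eno3 (0.34) and Slc25a4 (0.33).

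Lpl was closest to Ckmt2 (0.38), Slc25a4 (0.36), Atp2a1 (0.35), Eno3 (0.33) and Ckm (0.32), genes of energy supply and of the calcium pump of fast fibers. Thrsp was closest to Aldoa (0.35), Slc25a4 (0.33), Atp2a1 (0.33), Myl1 (0.33) and Tnnc2 (0.32), and Fabp3 to Acta1 (0.36), Tpm2 (0.35), Myoz2 (0.34), Mdh1 (0.33) and Slc25a4 (0.33). Dgat2 went with slow fiber genes, Tnnt1 (0.24), Tnni1 (0.23), Myl2 (0.23), Myh7 (0.23) and Tnnc1 (0.20), at the weakest correlations of the 8. Mb did too, with Myl3 (0.34), Myh7 (0.34) and Myl2 (0.33), followed by the muscle cytochrome oxidase subunits Cox6a2 (0.33) and Cox8b (0.28). Cdh5, Atp2a1 and the slow genes also form part of the scores used above, so that these lists and the region contrasts are not independent.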

How the data were processed

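The authors deposited raw UMI counts per gene and spot, made with Space Ranger 2.0.0 (3 sections) or 2.0.1 (5 sections, per the file headers) on mm10 with the mouse transcriptome probe set. Their scores and p-values of spatial enrichment hold their own findings and were not used. The counts are probe captures, so a level reads probes, not whole transcripts.

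Spots under 1000 UMIs were left out, and spot values were scaled to 10000 UMIs and log-transformed. Muscle spots lay above the Otsu threshold of the mean of 9 muscle genes in each section. Regions were the top 15% of muscle spots by the mean z-score of a list, and slow-rich and fast-rich spots were split at the median. UMIs were summed per section and region (12835167 to 75800909 UMIs in muscle spots) and tested with edgeR 4.0.16 (R 4.3.3; filterByExpr, TMM, glmQLFit, glmQLFTest), with Benjamini-Hochberg adjustment over all genes tested and a threshold of 0.05. Muscle sums of all 8 sections entered 1 fit with 5 groups and 3 residual degrees of freedom, and region sums of the 5 controls a fit with the section as a block. The regions of a section come from the same embryo, and their deviations went together (lowest r 0.11 to 0.83). In the muscle fit, p-values measure the spread between control sections, since a mutant group of 1 section has no spread of its own. In the region fits they measure how the contrast inside a section varies between sections. The region fits left 3 (2 regions) or 6 (3 regions) residual degrees of freedom. In all fits the spread of a gene was estimated with help from that of the other genes, so very small p-values rest largely on that. The tests were checked on simulated counts. DESeq2 1.42.0, other scalings, filters, spot choices and left-out sections were alternatives. Python 3.11.15, NumPy 2.4.6, SciPy 1.17.1, scikit-image 0.26.0 and matplotlib 3.10.9 were used for the rest.

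All 8 genes are named in each comparison, and from each pathway list up to 4 genes past the threshold with the largest fold changes among genes whose mean log2 CPM was 3 or more. For likeness, the 5 genes closest to each of the 8 are named. The mutant values of the slow fiber genes and those of Ttn, Cidea and Slc7a10 stand outside this rule and were chosen after their values were seen. The genes and lists were chosen with earlier results of these data known. Comparisons described as added, and library size alone, were chosen after the data were seen.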

Additional observations from a re-analysis of the deposited data

Results flagged for a closer look

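No group held the 4 sections that a test for a single outlying section needs. The effects below differed between groups by a test of the difference itself (edgeR, adjusted p under 0.05), and all but the first were tested after the data were seen. In muscle spots, the effect of the CaV1.1 KO on Fabp3 was lower at E18.5 than at E14.5 by a log2 difference of -1.58, and Lpl was higher in the E18.5 KO than in the cKO-labelled section by 0.93. Between the control stages, the contrast of muscle against other spots grew for Lpl by 0.61. The contrast of endothelium-rich against other muscle spots shrank for Gpihbp1 (-0.83) and Fabp4 (-0.66). Without E14.5 control section 2 these differences were -0.37 and -0.17, and neither passed. The contrast of slow-rich against fast-rich spots changed for Cd36 (-0.33), Fabp3 (-0.50) and Thrsp (-0.88), by a score whose fast genes Pvalb and Mybpc2 were near the floor at E14.5. The contrast of center against intermediate muscle changed for Lpl (-0.44) and Cd36 (-0.50), and that of periphery against intermediate muscle for Fabp3 (-0.86) and Dgat2 (-0.59).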

How the results depend on the processing

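Of 1505 values of single genes under an alternative, 1240 kept direction and side of the threshold, 167 lost it, 53 gained it and 45 changed direction. No label pairs sections across groups. Sections of the same number deviated in opposite directions (r = -0.33 and -0.32). The deviations of the 2 E18.5 sections mirror each other, so these values are not independent and cannot exclude a link across groups. The number was taken only to name the sections. With it as a replicate block the calls among the 8 genes were 0 at E14.5 KO (3 at an unadjusted p under 0.05), 0 in the cKO (5 unadjusted) and 0 for the KO by stage difference (3 unadjusted). Without the section as a block (no replicate block) the region calls were 0 for endothelium at both stages, slow against fast at both stages, the center at both stages and the E14.5 periphery (unadjusted 2 and 0, 0 and 2, 0 and 1, and 3), and 3 for the E18.5 periphery. DESeq2 called 3 for the E14.5 KO, 5 for the cKO, 3 for the stage difference of the KO, 2 and 0 (3 unadjusted) for endothelium at E14.5 and E18.5, 2 for slow against fast at E18.5, and 2 and 5 for the center. With no filter the counts were 5 in the E18.5 KO, 6 in the cKO and 3 for the stage difference, and over all spots 6, 6 and 2. Scaled to the 9 muscle genes they were 5 in the E18.5 KO, with Fabp3 the only lower one, and 4 for the stage difference. By library size alone the count for the stage difference was 3. With regions of 10% or 25% of spots, endothelium gave 2 and 2 at E14.5 and, with 25%, 3 at E18.5. With the upper and lower 25% by fiber score, 2 genes passed at E14.5. Calls among all genes tested moved widely too over the settings and left-out sections. They were 0 to 4939 for the E14.5 KO, 2863 to 12468 for the E18.5 KO and 81 to 3886 for the cKO. For the stage difference of the KO they were 0 to 4715. At E18.5 they were 17 to 3342 for endothelium and 2 to 2292 for slow against fast. The counts of the 8 under an alternative are thus not a result about these genes alone.

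Leaving out 1 control section at a time moved the counts to 0 to 1 (E14.5 KO), 3 to 5 (E18.5 KO), 1 to 6 (cKO), 0 to 2 (stage difference), 2 to 4 and 0 to 6 (endothelium), 1 to 2 and 2 to 6 (slow against fast), 1 to 4 and 5 to 8 (center), and 2 to 5 (E14.5 periphery). All 8 genes stayed higher at E18.5 in each. Values that changed sign among these ranged from -0.22 to 0.18 (Dgat2, E14.5 KO), -0.0048 to 0.86 (Mb, E18.5 KO), -0.041 to 0.79 (Gpihbp1) and -0.0041 to 1.02 (Fabp4) for muscle against other spots, -0.47 to 0.19 (Thrsp, endothelium), -0.049 to 0.040 (Gpihbp1), -0.014 to 0.030 (Cd36), -0.30 to 0.063 (Fabp4) and -0.072 to 0.44 (Mb) for slow against fast, -0.17 to 0.043 (Dgat2, center), and -0.46 to 0.078 (Gpihbp1) and -0.088 to 0.21 (Mb) for the periphery, all at E14.5 apart from Mb in the KO.

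Scaled to the 9 muscle genes, the stage values of Lpl (-0.96), Gpihbp1 (-0.66), Cd36 (-1.19), Fabp4 (-0.60) and Dgat2 (-1.25) turned. So did those of the E14.5 KO for Lpl (0.031), Cd36 (0.41), Fabp3 (0.24), Dgat2 (0.55) and Mb (0.23), and of the E18.5 KO for Lpl (1.13), Gpihbp1 (1.0), Cd36 (0.90), Fabp4 (0.48), Dgat2 (0.15) and Thrsp (0.22). Dgat2 turned in the cKO (0.20), and Cd36 (0.48) and Fabp4 (0.61) in the stage difference. By library size alone Lpl (0.27), Gpihbp1 (0.14) and Cd36 (0.028) turned in the E18.5 KO and Cd36 (0.17) and Fabp4 (0.26) in the stage difference. At E14.5, Dgat2 in the KO turned over all spots (0.21) and in the upper 0.5 of muscle spots (0.042), Lpl in endothelium-rich spots (0.019) and Thrsp in the center (-0.11) turned with 25% of spots, and Gpihbp1 in slow-rich spots turned without the block (0.012) and with the upper and lower 25% (0.038). With the periphery set by distance Fabp3 (-0.36), Dgat2 (-0.47) and Mb (-0.20) turned. The causes were not tested.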
